A study of Arabidopsis thaliana with 13 samples.

Results

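AKINBETA1 (AT5G21170), AT4G27450 and SIS (AT5G02020) are 3 Arabidopsis genes linked to the energy status of the cell, taken from 3689 genes with a named feature. They were represented by 6 of the 12800 cDNA features of the array, with 3 features for AKINBETA1, 1 for AT4G27450 and 2 for SIS. All 6 features had a value on each of the 13 arrays, so none of the 3 genes was lost to the requirement of a value on at least 10 arrays. The genes were picked because earlier results of these same data had placed them lower at 12 h than at 0 h and higher at 36 h than at 24 h. Values of those comparisons are therefore given as a description, with no test. The choice set no threshold on the size of a change.

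SnRK1 is a plant protein kinase related to yeast SNF1 and animal AMPK. It is built from a catalytic alpha subunit, a beta subunit that holds the complex together and helps to place it in the cell, and a subunit of the gamma type. The kinase is known for switching on the breakdown of reserves and of amino acids when sugars run short, as in prolonged darkness, and for restraining growth. AKINBETA1 encodes one of its beta subunits. AT4G27450 encodes a protein of a small family named after an aluminium-induced protein. SIS stands for Salt Induced Serine rich and was named for its response to salt.

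Each array was a spotted cDNA array read in 2 colours, and set RNA of a later harvest of plants against RNA of an earlier one. There were 2 arrays of 6 h against 0 h, 5 of 12 h against 0 h, 2 of 18 h against 0 h and 1 of 24 h against 0 h. A further 3 arrays stood alone: 36 h against 24 h with no light condition given, 36 h against 24 h labelled dark, and 60 h against 48 h. For the 60 h array the plants had been raised in 12 h of light and 12 h of dark, and were harvested 24 and 36 h after their transfer to continuous light. Ecotype, age, tissue and the light at the other hours are not given in the sources used here. Nor do the labels say that replicate arrays had plants of their own, so errors may be partly technical. The word biological is in 3 titles, and the word single in that of array 1 of 12 h. Array 5 of 12 h has the title of array 3 with (2) added, and whether it repeats that array is not given. The values are ratios, so they show changes and not whether a marker is present. Of the tissue markers looked for, 1 of 4 leaf and 1 of 3 root genes had a named feature, and 0 of 3 seed and 0 of 3 flower genes.

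Each value is a log2 ratio minus the array's median, with the later time on top. The deposited ratios were read as channel 2 over channel 1. That direction is likely but not stated, and the other reading turns every sign given here. It rests on how such ratios are commonly formed and on the dark array, where genes of branched-chain amino acid breakdown, known from other work to rise in darkness, were higher at the later time. Genes of starvation thus helped to set the direction, and the sign of the 3 genes on that array is no independent result. Array 1 of 12 h against 0 h, whose title holds the word single, stood apart. Its log2 ratios had an SD of 0.382, against 0.626 to 0.858 on the other 12 arrays. Its correlation across features with the other arrays of 12 h was -0.05 to 0.06, while those 4 correlated with each other at 0.13 to 0.57.

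From 0 to 12 h, transcripts of AKINBETA1 and AT4G27450 were lower on all 5 arrays, and SIS was lower on 4 of 5. In whole plants or tissue, less RNA per cell and fewer cells of a type that holds the transcript cannot be told apart. AKINBETA1 had log2 ratios of -0.11, -1.24, -1.71, -1.51 and -2.11 on arrays 1 to 5. The value of array 1 is close to no change, and the other 4 lie well below it. Their mean was -1.34 ± 0.75 (SD, n = 5), a 2.52-fold lower level at 12 h than at 0 h, or -1.64 ± 0.37 (SD, n = 4) and 3.12-fold lower without array 1. AT4G27450 had log2 ratios of -0.13, -1.03, -2.25, -1.71 and -2.40 on the same arrays. Its mean was -1.51 ± 0.94 (SD, n = 5), 2.84-fold lower, and -1.85 ± 0.62 (SD, n = 4), 3.61-fold lower, without array 1. Of the 3 genes it had the lowest ratio on arrays 1, 3, 4 and 5, though on array 1 it lay close to AKINBETA1.

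SIS moved less over the same hours. Its log2 ratios were 0.03, -0.91, -0.67, -0.69 and -1.12, with a mean of -0.67 ± 0.43 (SD, n = 5), or -0.84 ± 0.21 (SD, n = 4) without array 1. The 2 features of SIS differed most on array 3, at 0.10 for feature 7114 and -1.44 for feature 11855. They differed by less on the other arrays, with a gap of 0.93 on array 2. The 12 h arrays were read with 2 versions of the scanning software. Arrays 3, 4 and 5, read with ScanAlyze 2.33, gave means of -1.77 for AKINBETA1, -2.12 for AT4G27450 and -0.82 for SIS. Arrays 1 and 2, read with version 2.44, gave -0.68, -0.58 and -0.44 for these genes in that order, and array 1 is one of the pair. The part of the software in this difference was not tested.

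**Figure D1:**
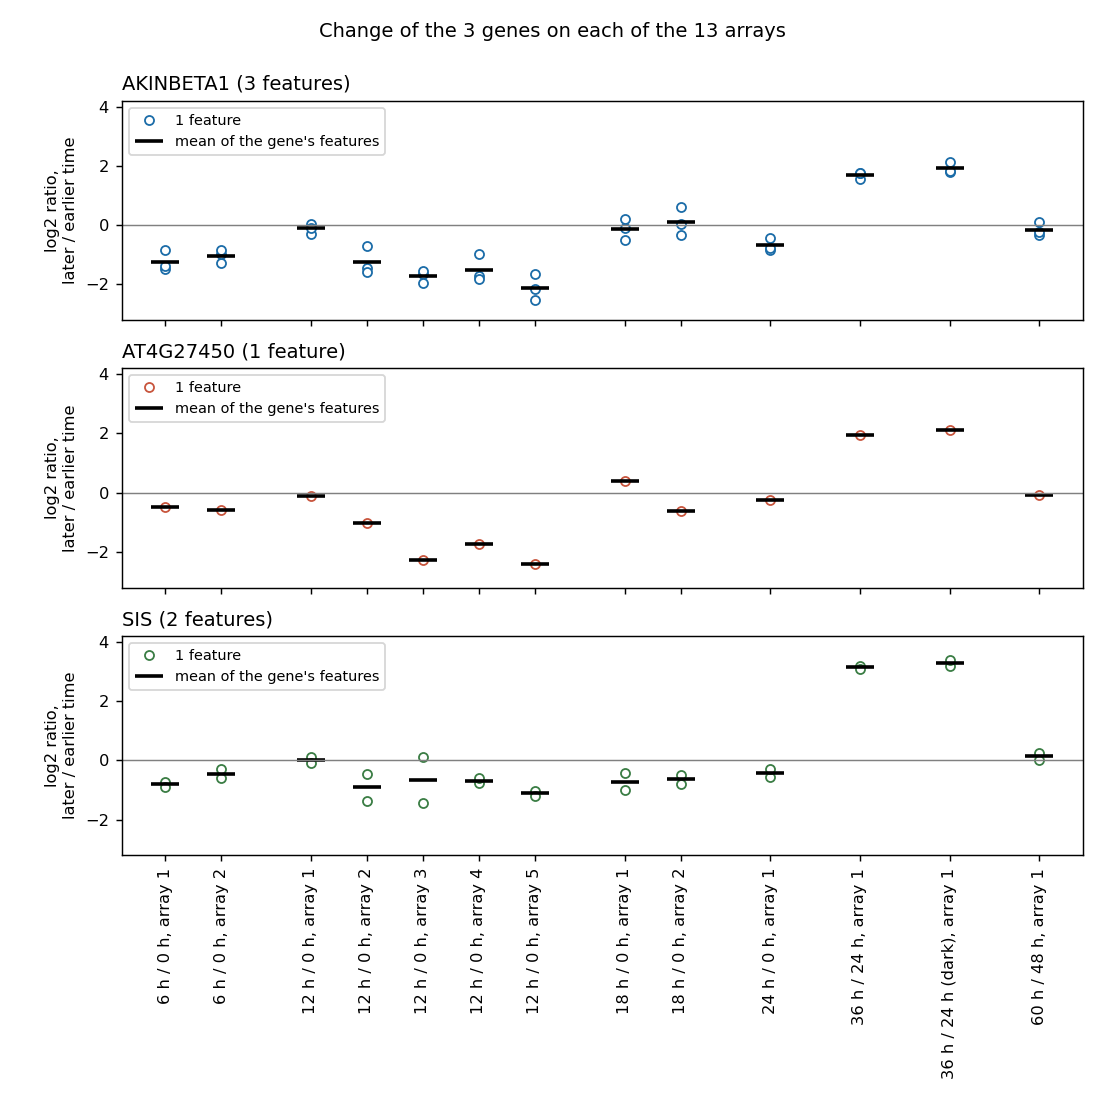
Log2 ratio of the later over the earlier time (y axis) of AKINBETA1, AT4G27450 and SIS on each array (x axis, grouped by comparison), with an open circle for each feature and a bar for the mean of a gene's features. The means of all 3 genes sit above 1.6 on both arrays of 36 h against 24 h, at or below 0.03 on the arrays of 12 h, and near 0 on the array of 60 h against 48 h.

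From 24 to 36 h the 3 genes stood high on both arrays. AKINBETA1 had a log2 ratio of 1.92 in the dark and 1.69 on the array with no light condition given, 3.79-fold and 3.23-fold higher at 36 h than at 24 h. AT4G27450 had 2.12 and 1.95 on these arrays, 4.35-fold and 3.86-fold higher. SIS had 3.29 and 3.14, 9.80-fold and 8.81-fold higher at 36 h. Only 0.178% of all targets had a higher ratio than SIS on the dark array and 0.177% on the other. A target is a named gene or a feature without a single gene. All 6 features agreed in sign on both arrays, and the widest gap between features of 1 gene was 0.35, for AKINBETA1 in the dark.

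The 2 arrays carried the later time in opposite channels. With the dye term the values of AKINBETA1 and AT4G27450 lay further apart than the ratios themselves: the fitted log2 changes were 1.61 ± 0.54 in the dark and 2.00 ± 0.54 on the other array for AKINBETA1 (SE, 1 array each), 1.62 ± 0.61 and 2.45 ± 0.61 for AT4G27450, and 3.22 ± 0.43 on both for SIS. The dye term itself was 0.31 for AKINBETA1, 0.50 for AT4G27450 and 0.08 for SIS. It turned the order of the arrays for AKINBETA1 and AT4G27450, whose ratios were higher in the dark. Without array 1 of 12 h the fitted changes lay closer together. They were then 1.78 in the dark and 1.84 on the other array for AKINBETA1, and 1.78 and 2.28 for AT4G27450. The change in the dark minus that on the other array was -0.38 ± 0.81 for AKINBETA1, -0.83 ± 0.92 for AT4G27450 and -0.0021 ± 0.64 for SIS, each smaller than its SE. These SEs assume that a lone array varies like the arrays of the other comparisons.

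Side by side, the fitted changes ran in opposite directions on the first and the second day. AKINBETA1 stood at 1.61 and 2.00 from 24 to 36 h, against -1.40 ± 0.23 (SE) from 0 to 12 h. AT4G27450 stood at 1.62 and 2.45, against -1.61 ± 0.26. SIS stood at 3.22 on both arrays, against -0.69 ± 0.18. The gap between the second and the first day ranged from 3.01 ± 0.58 for AKINBETA1 in the dark to 4.05 ± 0.68 for AT4G27450 with no light condition given. The genes were chosen for this gap, so it is given without a test. Of all 11279 targets with the 3 values, 16.7% had this order of signs, below 0 at 12 h and above 0 on both arrays of 36 h. Both arrays of 36 h were read with ScanAlyze 2.44, but arrays 3, 4 and 5 of 12 h with 2.33. On the 12 h arrays read with 2.44 the mean log2 ratios were -0.68 for AKINBETA1, -0.58 for AT4G27450 and -0.44 for SIS. The part of software or lot in the gap between the days was not tested.

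**Figure D2:**
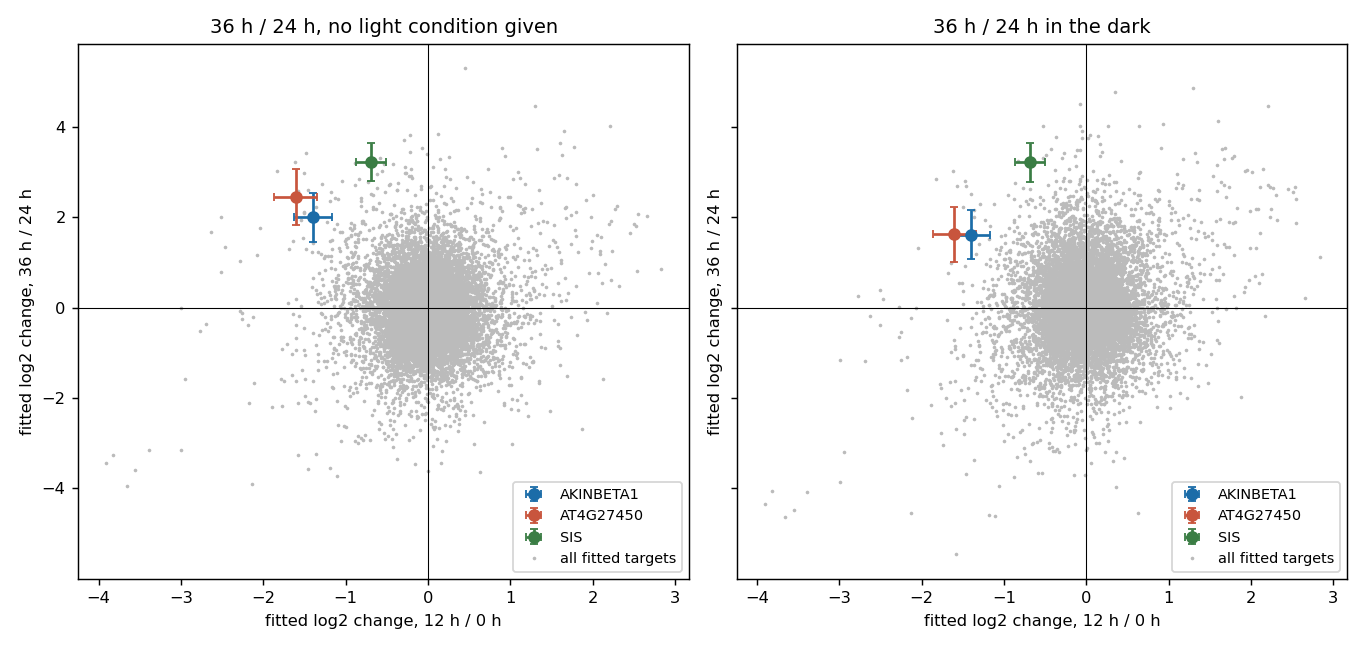
Fitted log2 change from 0 to 12 h (x axis) against that from 24 to 36 h (y axis), with no light condition given (left) and in the dark (right). Coloured points with bars of 1 SE are AKINBETA1, AT4G27450 and SIS, all at the upper left of both panels with SIS highest, and grey points are all fitted targets.

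The comparisons not used to choose the genes were tested with limma, fitted to all targets with a dye term and adjusted by the Benjamini-Hochberg method. At 6 h, AKINBETA1 had log2 ratios of -1.23 and -1.03 on the 2 arrays, 2.35-fold and 2.04-fold lower than at 0 h, and its 3 features lay between -1.48 and -0.84. The fitted change of -1.13 ± 0.36 (SE, n = 2 arrays) did not pass over all targets (limma adjusted p = 0.171), with 95% limits of -1.93 and -0.33. In this comparison 0.00886% of targets were called at an adjusted p under 0.05, or 1 of 11290, so the count of 0 among the 3 genes says little. SIS stood at -0.80 and -0.45 (limma adjusted p = 0.342) and AT4G27450 at -0.48 and -0.59 (limma adjusted p = 0.624), also lower on both arrays. This comparison and those of 18 and 24 h share the 0 h harvest with the 12 h comparison that chose the genes, and are not independent of it. That of 24 h also shares the 24 h time with the comparisons of 36 h that chose them.

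At 18 h SIS stood at -0.72 and -0.64 on the 2 arrays, with a fitted change of -0.60 ± 0.32 (SE, limma adjusted p = 0.862). AKINBETA1 stood at -0.12 and 0.11, and AT4G27450 at 0.40 and -0.62, so neither kept 1 sign. On array 2 AT4G27450 lay close to SIS, and differences between the genes were not tested. Their fitted changes of 0.30 ± 0.41 and 0.39 ± 0.46 (limma adjusted p = 0.955 and 0.946) turn negative without the dye term, at -0.0078 and -0.11. Both arrays of 18 h had the later time in the same channel. Their dye correction therefore came from other comparisons, as did that of each comparison with a single array. limma called 0 of 11290 targets here, which is 0% and leaves 676 at an unadjusted p under 0.05. At 24 h, after a full day, the log2 ratios were -0.68 for AKINBETA1, -0.25 for AT4G27450 and -0.43 for SIS on the single array, with fitted changes of -0.98 ± 0.54, -0.75 ± 0.61 and -0.50 ± 0.43 (limma adjusted p = 0.9998 for each, 0.0177% of targets called).

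From 48 to 60 h, in continuous light, the 3 genes had log2 ratios close to 0: -0.15 for AKINBETA1, -0.09 for AT4G27450 and 0.14 for SIS. This array shares no harvest time with the comparisons that chose the genes. None passed, as limma gave fitted changes of -0.46 ± 0.54, -0.59 ± 0.61 and 0.06 ± 0.43 (adjusted p = 0.9993 for each), where 0.585% of targets were called, 0.504% higher and 0.0811% lower. The 95% limits run from -1.67 to 0.76 for AKINBETA1, from -1.96 to 0.79 for AT4G27450 and from -0.90 to 1.02 for SIS. The change in continuous light minus that in the dark was -2.07 ± 0.72 for AKINBETA1, -2.21 ± 0.81 for AT4G27450 and -3.15 ± 0.57 for SIS (SE). These differences hold a value that chose the genes, and they were not tested.

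Ordered from highest to lowest fitted change, AKINBETA1 ran from 36 h with no light condition given through 36 h in the dark, 18 h, 60 h, 24 h and 6 h down to 12 h. None of its 6 neighbouring pairs differed by more than 2 SE of the difference. AT4G27450 kept the same order except that 6 h came ahead of 60 and 24 h, and again 0 of 6 neighbours differed by that much. For SIS, 1 of 6 did: the step of 3.15 ± 0.57 between 36 h in the dark and 60 h against 48 h, below which all changes lay between -0.69 and 0.06. Which array of 36 h came first rested on the dye term, as the ratio of each gene was higher in the dark. The changes at 12 h and 36 h in these orders chose the genes, so the orders and steps are a description and no test.

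Features of 1 gene can be set against each other as repeat measurements on the same RNA. The 3 features of AKINBETA1 correlated at 0.94 to 0.96 over the 13 arrays, with a median difference of 0.31 to 0.39. The largest gap, 0.93, was between features 4723 and 11659 on array 2 of 18 h. The 2 features of SIS correlated at 0.92, with a median difference of 0.25 and a largest one of 1.54. AT4G27450 rests on a single feature and has no such check. These correlations share arrays and RNA and are a description.

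AKINBETA1 was set against the other subunits of SnRK1 and the kinases that act on it. Of the 9 other genes in that list, 2 had a named feature, both for beta subunits. AT4G16360, known as KINbeta2, had fitted log2 changes of 0.21 ± 0.15 from 0 to 12 h (SE, limma adjusted p = 0.474), -0.08 ± 0.37 from 24 to 36 h in the dark (0.948) and -0.17 ± 0.37 with no light condition given (0.861). AT2G28060, known as KINbeta3, had -0.08 ± 0.19 (limma adjusted p = 0.853), 0.39 ± 0.44 (0.715) and -0.55 ± 0.44 (0.568). Over the 7 comparisons 0 of these 2 genes were called, and their fitted changes lay between -0.55 and 0.40. Between 0% and 4.11% of all targets were called in a comparison, so a count of 0 among 2 genes says little. AKINBETA1 ran from -1.40 to 2.00, and both ends are values that chose it. In the comparisons that did not choose it, AKINBETA1 lay between -1.13 and 0.30. The alpha and gamma subunits were not analysed here.

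All 5 genes of the aluminium-induced family of AT4G27450 were measured. None of the other 4 was called in any comparison, which at these shares of all targets also says little. The nearest on the first day was AT3G15450, with log2 ratios of 0.35, -0.89, -1.02, -1.48 and -1.37 on the arrays of 12 h and a fitted change of -0.91 ± 0.24 (SE, limma adjusted p = 0.0708, 4.11% of targets called). Like AT4G27450 it was low on arrays 2 to 5 and not on array 1. From 24 to 36 h it stood at 0.38 in the dark and 0.45 on the other array, far below the 2.12 and 1.95 of AT4G27450. AT5G43830 had the reverse pattern, near 0 at 12 h (-0.17 ± 0.15) and at 1.29 and 1.39 on the arrays of 36 h (limma adjusted p = 0.134 in the dark, where 2.16% of targets were called, and 0.0679 on the other, with 1.54%). AILP1 (AT5G19140) stood at 0.80 ± 0.23 at 6 h (limma adjusted p = 0.140), where AT4G27450 stood at -0.54 ± 0.40. AT3G22850 stayed between -0.09 and 0.34 in all 7 comparisons. The median of the 4 relatives was -0.30 at 12 h, 0.36 at 36 h in the dark and 0.67 on the other array of 36 h, against medians of -0.01, -0.02 and -0.03 over all targets.

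**Figure D3:**
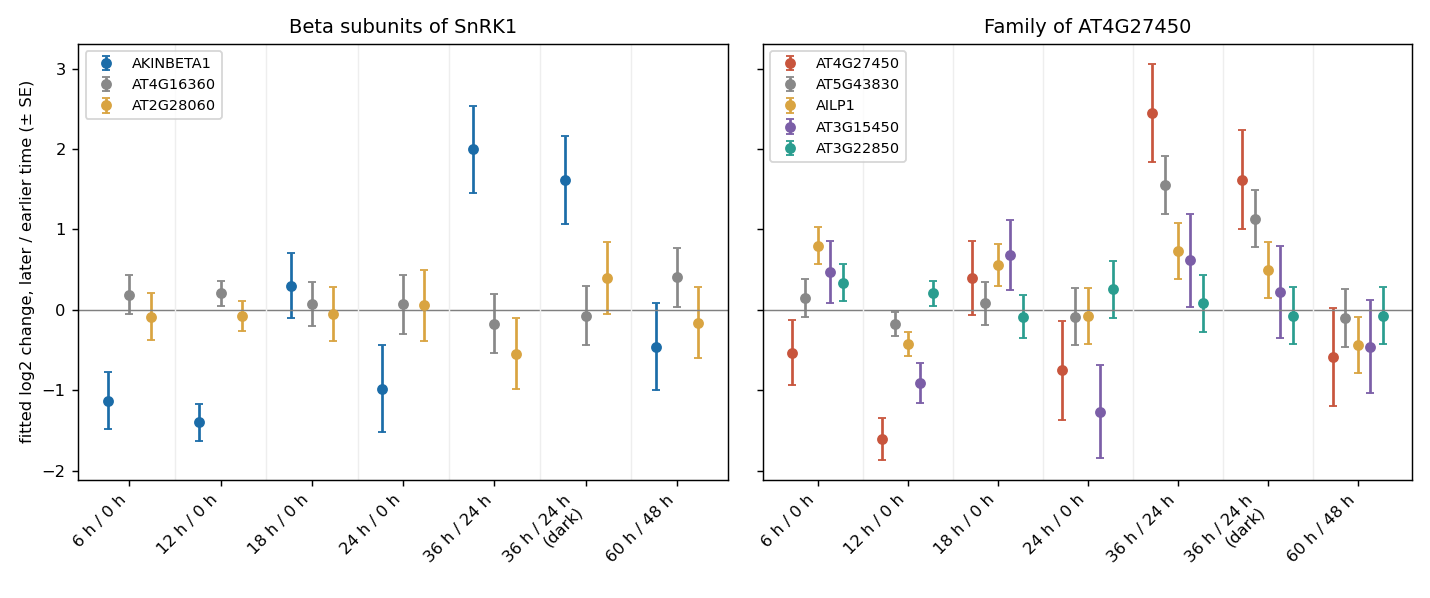
Fitted log2 change, later over earlier time, with bars of 1 SE (y axis) in the 7 comparisons (x axis), for AKINBETA1 beside the other measured beta subunits of SnRK1 (left) and for AT4G27450 beside the 4 relatives of its family (right). AKINBETA1 leaves 0 in both directions while AT4G16360 and AT2G28060 stay between -0.55 and 0.40. No relative of AT4G27450 reaches its values at both 12 h and 36 h. AKINBETA1 and AT4G27450 were chosen for their values at 12 h and 36 h.

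Breakdown of branched-chain amino acids feeds the respiration of starved cells. Of 7 measured genes on a list for this breakdown, 4 were called higher from 24 to 36 h in the dark. AKINBETA1, AT4G27450 and SIS were not tested in that comparison. These lists were drawn up with earlier results of the data known. The list holds 14 genes, and 0.925% of all targets were called higher in the dark. Genes of this list helped to set the direction of the ratios, so their sign on that array is no result. Their signs on the other arrays rest on the same direction. MCCA, a subunit of methylcrotonyl-CoA carboxylase, rose by 3.50 ± 0.49 (SE, 1 array, limma adjusted p = 0.0157), and AT1G21400, IVD and MCCB rose by 3.07, 3.24 and 2.45. The list's median was 2.45 in the dark, against -0.02 over all targets, so SIS at 3.22 lay above that median and AKINBETA1 and AT4G27450, at 1.61 and 1.62, below it. With no light condition given 3 of the 7 were called higher, where 0.824% of targets were. From 0 to 12 h the list had a median of -0.43, and 1 of 7, AT2G26800, was called: it fell by 1.13 ± 0.22 (limma adjusted p = 0.0319), where 2.27% of targets were called lower. From 24 to 36 h that gene stood at -0.46 ± 0.53 in the dark and -0.19 ± 0.53 on the other array. D2HGDH also differed from the 4, at 0.21 ± 0.43 and 0.24 ± 0.43 on these arrays and 0.48 ± 0.18 at 12 h (limma adjusted p = 0.179), and ETFQO stood at 1.78 ± 0.47 and 1.74 ± 0.47 (limma adjusted p = 0.0882 and 0.106). From 48 to 60 h, 0 of 7 were called and the median was -0.34.

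Other starvation markers were sparsely covered, with 4 of 26 measured. AT1G19530 and AT3G62550 were called higher from 24 to 36 h on both arrays, at 2.91 and 2.75 in the dark. Of all targets, 0.925% were called higher in the dark and 0.824% on the other array. Both had been put on the list with their values on these arrays known, so they lend no support. AT3G62550 differed from the 3 genes on the first day. It rose by 3.15 ± 0.34 at 6 h (limma adjusted p = 0.0457), where 1 of 11290 targets was called. At 12 h it rose by 1.11 ± 0.22 (limma adjusted p = 0.0303), where 1.84% of targets were called higher. AKINBETA1, AT4G27450 and SIS stood below 0 at both times. AT3G62550 was listed with earlier results of these data known, so its calls on the first day lend no support either. AT2G32150 had log2 ratios of 2.30 in the dark and 2.35 on the other array of 36 h, neither called (limma adjusted p = 0.171 and 0.0855). The remaining marker was AT3G15450, also of the family of AT4G27450. Its fitted changes were 0.22 ± 0.58 in the dark and 0.62 ± 0.58 on the other array (SE). Among the 16 genes of sugar signalling, 1 had a named feature, the transcription factor gene BZIP53, at 0.06 ± 0.34 in the dark (limma adjusted p = 0.955) and 1.23 ± 0.34 on the other array of 36 h (limma adjusted p = 0.112). Of the 16 salt and drought genes other than SIS, 2 were measured. COR47, a dehydrin gene, rose by 1.08 ± 0.23 at 12 h (limma adjusted p = 0.0355), where 1.84% of targets were called higher and SIS stood at -0.69, and KIN2 was not called in any comparison. From 24 to 36 h, where SIS stood high, COR47 had 2.12 ± 0.54 in the dark and 1.14 ± 0.54 on the other array (limma adjusted p = 0.0772 and 0.296). KIN2, known for its response to cold and drought, had 2.67 ± 1.11 and 1.41 ± 1.11 (limma adjusted p = 0.243 and 0.553). The calls among these listed genes rest on few arrays. All 6 in the dark were lost when arrays were scaled to 1 spread. All 3 at 12 h were lost without any 1 of arrays 2 to 5, while 6 were made without array 1. Calls over all targets went the same way: under scaling, 243 in the dark became 0. At 12 h, 464 became 0 without any 1 of arrays 2 to 5, and 1063 without array 1.

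Neither of the 2 measured markers of tissue was called in any comparison, and with at most 4.11% of targets called this says little about them. LHB1B2, an antenna protein gene of green tissue, had log2 ratios of 0.61 in the dark and -0.02 on the other array of 36 h. PYK10, a root gene, had -1.04 and -0.86 on these arrays (limma adjusted p = 0.257 and 0.358). The fitted change of LHB1B2 was -1.31 ± 0.38 at 18 h and -1.26 ± 0.51 at 24 h (limma adjusted p = 0.602 and 0.9998). On the arrays of 12 h LHB1B2 ran from -1.32 to 0.29 and PYK10 from -0.28 to 0.42. The part of tissue composition in the changes of the 3 genes was not tested.

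Ranked by Pearson's r with each of the 3 genes over the 13 arrays, AKINBETA1 and AT4G27450 were among each other's 3 most alike of 3688 named genes. SIS was not among the 3 of either. The 13 arrays include those of 12 h and 36 h that chose the 3 genes, so likeness among them was partly set by the choice. AT4G27450 was the gene most like AKINBETA1 (r = 0.95), followed by AT4G32480 and AT4G19160 (both 0.95). AT4G32480 was also low at 12 h, at -1.87, -1.17, -1.56 and -1.80 on arrays 2 to 5, and stood at 1.52 in the dark and 1.07 on the other array of 36 h. For AT4G27450 the closest were AT3G56740, AKINBETA1 and ATG8F (each r = 0.95). ATG8F encodes a protein that coats the membranes of autophagy, the cell's recycling of its own contents. It had log2 ratios of 1.55 in the dark and 1.24 on the other array of 36 h, and between -0.92 and 0.15 on the arrays of 12 h. AT3G56740 followed the shape at a smaller scale, with 0.57 and 0.73 at 36 h and a lowest value of -0.86 at 12 h.

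For SIS the closest genes were AT3G51730 (r = 0.97, 4 features), AT1G21400 (r = 0.97) and MGL (r = 0.96, 3 features), the methionine gamma-lyase that breaks down methionine. MGL had log2 ratios of 2.51 in the dark and 2.85 on the other array of 36 h. It stood nearer to 0 than SIS at 12 h, with 0.08, -0.07, -0.27 and -0.80 on arrays 2 to 5. AKINBETA1 ranked 19th in likeness to SIS (r = 0.89) and AT4G27450 ranked 53rd (r = 0.85). The arrays share harvest times, so these values are a description.

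**Figure D4:**
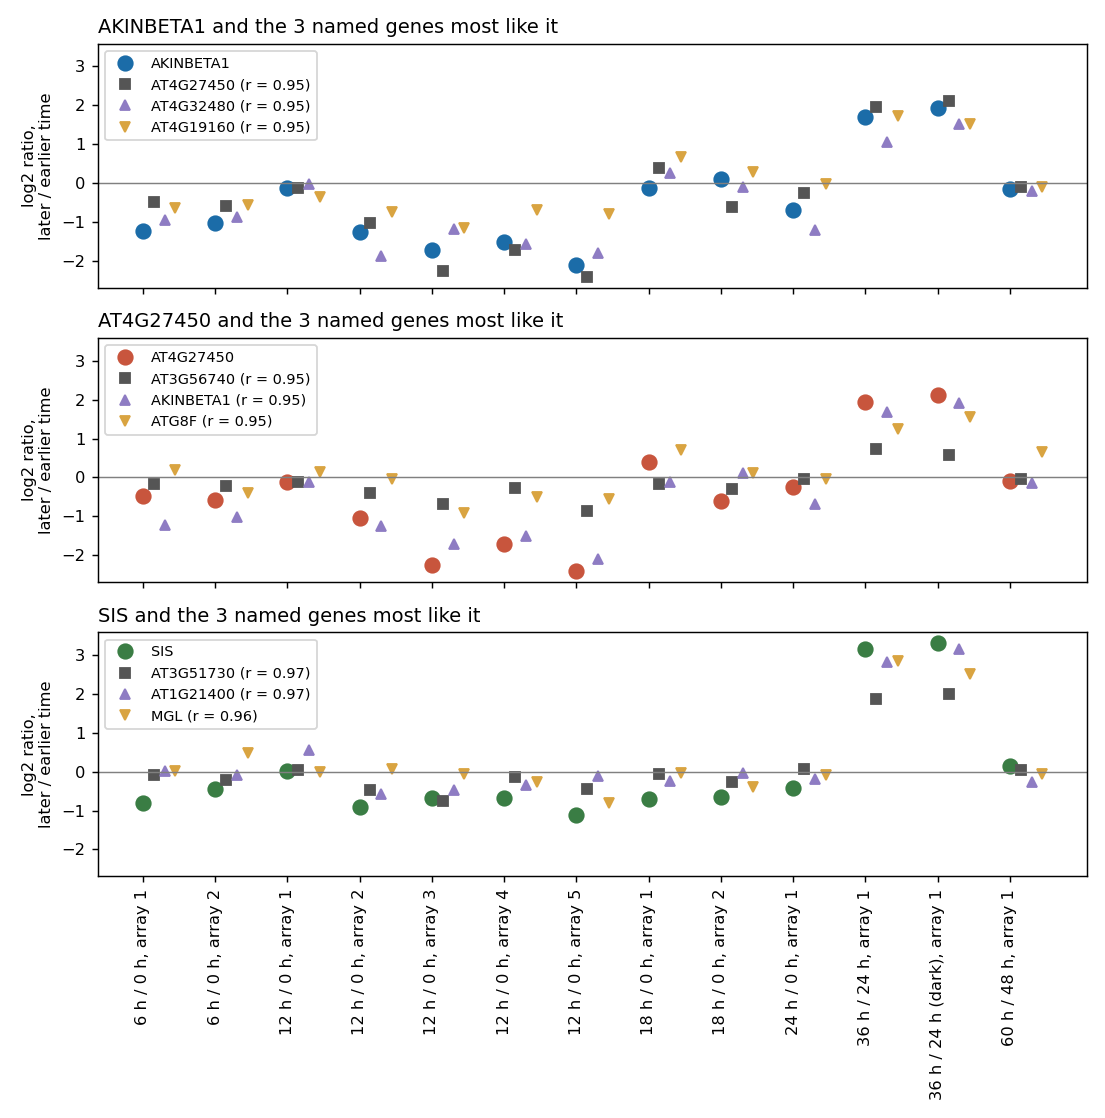
Log2 ratio of the later over the earlier time (y axis) on each of the 13 arrays (x axis) for AKINBETA1, AT4G27450 and SIS (large circles), each with the 3 named genes of highest Pearson r (smaller symbols, set slightly to the right). The genes most like SIS share its high values of 36 h against 24 h and lie nearer to 0 than SIS on arrays 2, 4 and 5 of 12 h, while AT4G32480 follows AKINBETA1 on both sides of 0.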

How the data were processed

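The deposited file holds 1 log2 ratio per feature and array for 12800 features on 13 arrays. ScanAlyze 2.33, 2.42 or 2.44 served for reading, per the labels. The sources used here do not say how the authors corrected background, normalized or directed the ratio. Values show the log base: -1, the log2 of a halved ratio, occurs 159 times, against a mean of 18.1 at neighbouring steps.

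The platform annotation pairs 5197 features with 1 gene, and 5190 of these matched the TAIR10.1 gene table. Features of 1 gene were averaged per array after centring on the array's median and turning the later time to the top. The 11290 targets with a value on at least 10 arrays were fitted with limma 3.58.1 in R 4.3.3 (lmFit, eBayes), with a term for each pair of times and one for the dye, and adjusted by Benjamini-Hochberg at 0.05. Both arrays of 6 h were turned by their channels, although the title of array 2 lists the times in the other order. The fit was tested on simulated data. The number of arrays limits the precision.

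The 3 genes and all gene lists were chosen with earlier results of these data known. Named beside them are the measured genes of the SnRK1 list and of the family of AT4G27450, genes of the other lists that were called or among the 3 largest changes each way in the dark, and the 3 genes most alike by Pearson's r. Positions and sequences are not used here, since no genome of a stated build was given. Alternatives were no centring, no dye term, a separate dye term for ScanAlyze 2.33, arrays scaled to 1 spread, values on all 13 arrays, features kept apart, the 3 ScanAlyze 2.33 arrays of 12 h averaged, array 2 of 6 h turned, software version as a random block or taken apart, and each array left out.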

Additional observations from a re-analysis of the deposited data

Results flagged for a closer look

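AKINBETA1 and AT4G27450 changed in opposite directions over 12 h on different days. Each array of 12 h against 0 h was below 0 and each of 36 h against 24 h above it. The lower of the 2 ratios of 36 h against 24 h was 1.69 for AKINBETA1 and 1.95 for AT4G27450, while all 5 ratios of 12 h against 0 h were below 0. In continuous light, the single ratio of 60 h against 48 h was -0.15 for AKINBETA1 and -0.085 for AT4G27450, on the other side of 0 from both arrays of 36 h. The differences were not tested, since the genes were chosen for the changes at 12 h and 36 h. Both values are small beside the residual SD of 0.506 and 0.572 of these genes. Among the 24 measured genes of the lists, the 3 genes included, 0 had an array of 12 h far enough from the other 4 to be singled out, although array 1 was nearest to 0 for AKINBETA1, AT4G27450 and SIS.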

How the results depend on the processing

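The fitted changes of the 3 genes at 12 h and 36 h kept their sign under every alternative run, and no change at 6, 18, 24 or 60 h passed the threshold under any. With arrays scaled to 1 spread, the change with no light condition given was 1.32 for AKINBETA1, 1.66 for AT4G27450 and 2.14 for SIS, and that of SIS in the dark was 2.68. AT4G27450 at 12 h was -0.58 on the ScanAlyze 2.44 arrays alone. At 18 h AKINBETA1 and AT4G27450 were at -0.0078 and -0.11 without the dye term. SIS at 60 h was -0.042 with array 2 of 6 h turned and -0.27 by feature 11855 alone. Leaving out 1 array at a time, AT4G27450 ranged from -1.16 to 0.095 at 6 h (above 0 without array 1 of 6 h) and from -0.12 to 0.90 at 18 h (below 0 without array 1 of 18 h), and SIS from -0.042 to 0.17 at 60 h (below 0 without either array of 6 h). The largest range for AKINBETA1 was -1.71 to -0.55 at 6 h, with a lowest limma adjusted p of 0.0566, against 0.171 with all arrays.

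Among the other genes of the lists, calls depended on the setting. The 1 call at 6 h became 2 when values on all 13 arrays were required. It became 0 if arrays were not centred, if ScanAlyze 2.33 arrays had their own dye term, if their 3 arrays of 12 h were averaged, or if array 2 of 6 h was turned, and dropping any single array gave 0 to 2. At 12 h, 3 calls became 1 under scaling or the extra dye term. They became 0 when no dye was fitted, under averaging and under turning. Dropping array 2, 3, 4 or 5 of 12 h gave 0 calls and dropping array 1 gave 6. With no light condition given, 5 calls became 1 under the extra dye term or turning and 0 under scaling or averaging. Dropping single arrays gave 1 to 6, with 1 when array 3 or 5 of 12 h, or any array of 6 h, was dropped. In the dark, 6 calls became 0 under scaling, averaging or turning, and 4 to 7 on dropping single arrays. Calls over all targets also fell: averaging took 464 at 12 h, 174 with no light condition given and 243 in the dark to 0 each. Scaling took both comparisons of 36 h to 0 and left 202 at 12 h. Turning left 0 at 12 h, 13 with no light condition given and 10 in the dark. The causes were not tested. No paired analysis was possible because the labels give the arrays no shared replicate numbers.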
